A study of Mus musculus with 6 samples.

Results

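Transcripts of 10 inflammasome genes were followed in RNA from marrow flushed out of mouse femurs. The 6 animals were aged 6 to 8 weeks: 3 were wild type, numbered WT 1 to 3, and 3 carried the genotype label P2rx7 knockout, lettered knockouts A to C. The genes were taken by their exact symbol from the deposited table of 55291 genes: the sensors Nlrp3, Nlrc4, Aim2 and Mefv, the regulators Nek7 and Txnip, the adaptor Pycard, the caspases Casp1 and Casp4, and the pore-forming effector Gsdmd. All 10 had a row and all 10 passed the filter on low counts. The labels give 1 library per mouse and name no strain, sex, allele or method of knockout. The product of P2rx7 is P2X7, a cation channel opened by extracellular ATP, and the series concerns its role in bone ageing.

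Inflammasomes are protein complexes that macrophages, monocytes and neutrophils assemble in the cytosol when a sensor meets a microbial product or a sign of cell damage. The sensor recruits the adaptor ASC, the product of Pycard, which gathers caspase-1, and the active protease matures interleukin-1 beta and interleukin-18 and cuts gasdermin D, whose released part forms pores in the membrane. Potassium efflux through P2X7 is a classical trigger of the NLRP3 complex. Much of this control acts on proteins, so a transcript level shows how much of the machinery is encoded and not whether it is active.

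The libraries held 18716704 to 23575652 counts. P2rx7 itself had 1207, 1410 and 1453 counts in WT 1 to 3 and 876, 722 and 748 counts in knockouts A to C. It fell by 37.2% (log2 fold change -0.67 ± 0.05 SE, adjusted p = 0.0109, edgeR), it had the smallest p of all 15478 tested genes, and transcripts of the targeted gene remained in every knockout. The counts cover the whole gene and do not show how the gene was altered. The labels do not say whether the cells were handled further between flushing and extraction. Markers of several marrow cells were at or near 0 in libraries labelled bone marrow. The 4 haemoglobin genes Hbb-bt, Hbb-bs, Hba-a1 and Hba-a2 had 0 to 5 counts per library. Among B cell genes, Ms4a1 and Pax5 had 0 to 3 counts, whereas Cd79a had 1 to 12 and Cd79b 12 to 21. Macrophage and stromal genes were abundant: Csf1r, the receptor for macrophage colony-stimulating factor, was at 239 FPKM in wild types and 237 FPKM in knockouts, and the summed FPKM of 9 monocyte and macrophage markers was 5400 to 6140 in wild types and 5250 to 5660 in knockouts. FPKM is a count scaled by exon length and library size. Traces of pituitary hormone transcripts set knockouts B and C apart from the other 4 libraries: Gh had 54, 82 and 75 counts in WT 1 to 3 and 23 in knockout A, whereas knockouts B and C had 0.

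None of the 10 inflammasome genes passed the threshold of an adjusted p below 0.05 in edgeR's quasi-likelihood test, whose call rate over all tested genes was 0.103% (0.0581% higher and 0.0452% lower). Casp4 and Casp1 came nearest. Their 3 knockout values all lay above their 3 wild-type values, whereas the genotypes overlapped for the other 8 genes. These 2 of 10 stand against 21.9% of all tested genes whose genotypes did not overlap, and against 11.5% with the knockouts higher. Before adjustment, 3 of the 10 genes were below 0.05, Casp4, Casp1 and Pycard, all higher in knockouts, against 16.6% of all tested genes, 8.35% higher and 8.22% lower. The median log2 fold change of the 10 genes was 0.06, with 9 values above 0 and 1 below, against a median of 0.004 and 51.2% of values above 0 over all tested genes. That median was 0.04 without knockout B, and 0.11, 0.11 and 0.10 without WT 1, knockout A and knockout C. Among the other methods, limma-voom called 0 of the 10 genes and DESeq2 called 1, which was Casp4 (adjusted p = 0.0253). Keeping every gene with a count in edgeR also called Casp4 alone of the 10 (adjusted p = 0.00932). Both settings called far more genes in all. DESeq2 called 496 of 15478 and edgeR with every gene kept 970 of 30301, against 16 of 15478 in the main analysis. In bulk RNA, fewer cells of a type and less RNA per cell cannot be told apart.

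**Figure D1:**
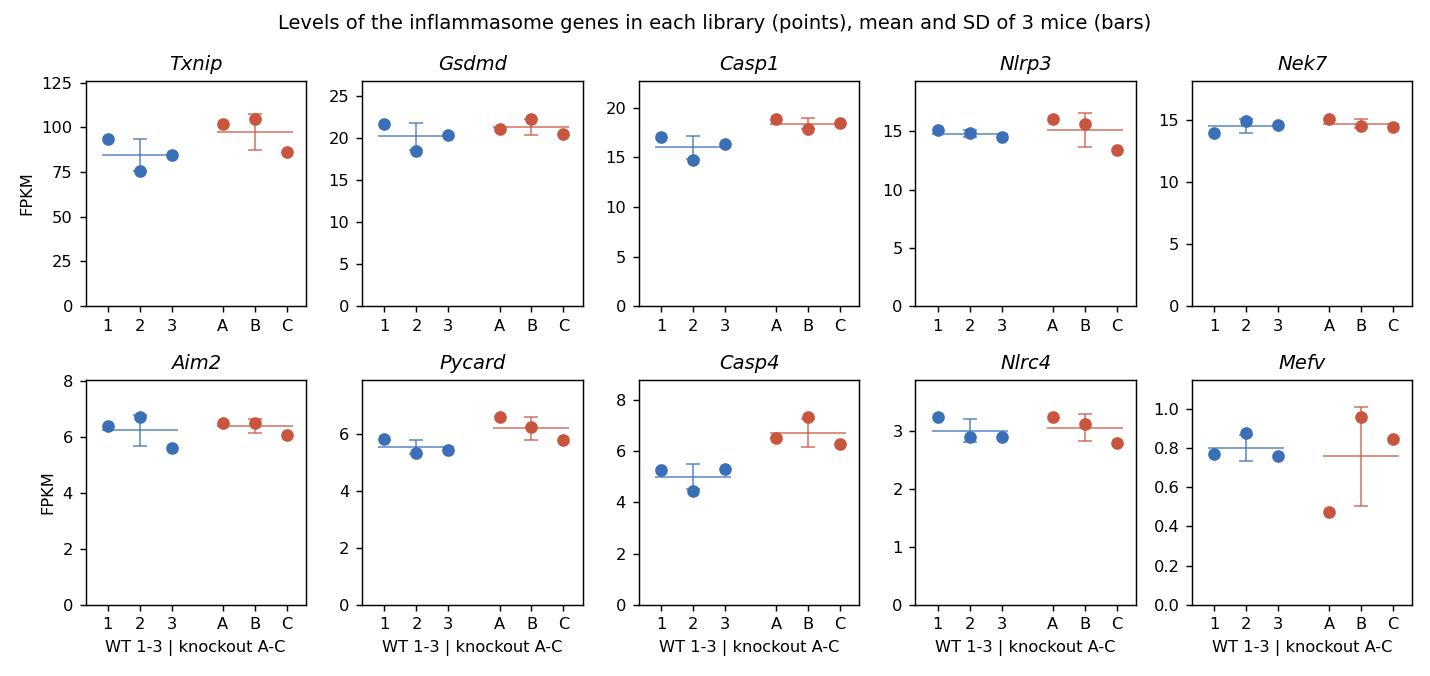
Deposited FPKM of the 10 genes in each library, from the highest to the lowest mean level, with each vertical axis starting at 0. Blue points are WT 1 to 3 and red points are knockouts A to C, and bars show the mean and SD of 3 mice. Casp1 and Casp4 are the only panels in which all red points lie above all blue points.

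On the per-length scale the 10 genes differed widely in level. Averaged over all 6 libraries, Txnip stood first at 91.1 FPKM, above 97.4% of tested genes in rank. Gsdmd (20.8 FPKM), Casp1 (17.2 FPKM), Nlrp3 (14.9 FPKM) and Nek7 (14.6 FPKM) formed a middle group. Aim2 (6.3 FPKM), Pycard (5.88 FPKM) and Casp4 (5.85 FPKM) followed, and then Nlrc4 (3.03 FPKM) and Mefv (0.779 FPKM). Within these groups the ranges of neighbouring genes overlapped: Gsdmd exceeded Casp1 in 6 of 6 libraries, Nlrp3 exceeded Nek7 in 3 of 6 and Pycard exceeded Casp4 in 4 of 6. The ranges over libraries did not overlap at 4 steps of this order, between Txnip and Gsdmd, Nek7 and Aim2, Casp4 and Nlrc4, and Nlrc4 and Mefv. No test was run on levels between genes. The exon length used for Pycard was 3800 bases, most of the span of the gene. The order of levels and the ratios between genes therefore depend on the annotated exon lengths.

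Among the sensors, Nlrp3 transcripts differed little between genotypes. NLRP3 responds to potassium efflux, including that opened by P2X7. The Nlrp3 gene (ENSMUSG00000032691.14) lies on chromosome 11 at 59541568 to 59566956 on the plus strand (GRCm38). It was at 15.1, 14.9 and 14.5 FPKM in WT 1 to 3 and at 16.1, 15.6 and 13.4 FPKM in knockouts A to C. Knockout C was the lowest library and knockout A the highest, so the wild types lay inside the knockout range. The knockout level was 1.02 times the wild-type level, with a 95% interval of 0.909 to 1.14 (adjusted p = 0.886, edgeR). That interval does not reach the ratio of P2rx7 itself, 0.628.

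Nlrc4 and Aim2 also overlapped. NLRC4 assembles when NAIP proteins bind bacterial flagellin or secretion-system parts, and AIM2 binds double-stranded DNA in the cytosol. On GRCm38, Nlrc4 lies on chromosome 17 at 74425438 to 74459142 (minus strand) and Aim2 on chromosome 1 at 173350879 to 173466040 (plus strand). Nlrc4 was at 3.24, 2.90 and 2.89 FPKM in wild types 1 to 3 and at 3.24, 3.13 and 2.80 FPKM in knockouts A to C, which are nearly the same ranges. Its ratio of knockout to wild type was 1.02 (95% interval 0.887 to 1.18). Aim2 was at 6.39, 6.70 and 5.61 FPKM in wild types and 6.51, 6.51 and 6.08 FPKM in knockouts. WT 3 was the lowest and WT 2 the highest library of Aim2, and the ratio was 1.03 (0.904 to 1.17).

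Mefv, which encodes pyrin, the sensor of inactivated RhoA, was the scarcest of the genes and the least precisely measured. It lies on chromosome 16 at 3707218 to 3718097 (minus strand). It had 50, 66 and 57 counts in wild types and 34, 59 and 55 counts in knockouts A to C, or 0.766, 0.877 and 0.758 FPKM and 0.472, 0.956 and 0.843 FPKM. Knockout A alone was low, and knockout B was above every wild type. The ratio of 0.945 had a 95% interval of 0.623 to 1.43, the widest of the 10 genes. Counting alone gives a coefficient of variation of 13.2% at the wild-type counts and 14.2% at the knockout counts, where the observed values were 8.31% and 33.4%. Without knockout A the log2 fold change of Mefv was 0.18, and in a fit with a term for knockouts B and C against the other 4 libraries it was -0.76 (unadjusted p = 0.0205, adjusted p = 0.837, edgeR). Neutrophils are a main site of Mefv expression, and the summed FPKM of 10 mature neutrophil markers was 39.3 in knockout A against 193 and 206 in knockouts B and C. The same sum was 224, 89.8 and 258 in WT 1 to 3, so WT 2 combined a low marker sum with the highest wild-type level of Mefv. Most of the sum was S100a8 and S100a9. Both were lowest in knockout A, as were Ly6g, Mmp8, Cxcr2, Retnlg, Ltf and Camp. Csf3r was at 8.37 FPKM in knockout A and lowest in WT 1 at 7.94 FPKM. Mmp9 was at 1.21 FPKM in knockouts A and B and lowest in WT 2 at 0.867 FPKM. No marker of this list was at 0 in every library, Ly6g had 1 to 12 counts and Cxcr2 3 to 17, and the part of neutrophils in the values of Mefv was not tested.

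Together the 4 sensors summed to 25.5, 25.4 and 23.8 FPKM in wild types and 26.4, 26.2 and 23.1 FPKM in knockouts. Nlrp3 made up 59.7 ± 1.25% of this sum in wild types and 59.6 ± 1.64% in knockouts (SD, n = 3). Both the sum and the share overlapped between genotypes.

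The regulators of NLRP3 differed from each other in spread. NEK7 is a kinase that binds NLRP3 and is needed for its assembly. Nek7 lies on chromosome 1 at 138482875 to 138620141 (minus strand). It was at 13.9, 14.9 and 14.6 FPKM in wild types and at 15.1, 14.5 and 14.4 FPKM in knockouts A to C. These values interleave, and the ratio of 1.02 had the narrowest 95% interval of the 10 genes, 0.950 to 1.09. The ratio of Nek7 to Nlrp3 was 0.976 ± 0.0502 in wild types and 0.980 ± 0.0838 in knockouts (SD, n = 3), on the per-length scale.

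Txnip encodes an arrestin-like protein that binds thioredoxin, restrains glucose uptake and has been described as a partner of NLRP3 under oxidative stress. The gene lies on chromosome 3 at 96557957 to 96561883 (plus strand). It was at 93.5, 75.4 and 84.8 FPKM in WT 1 to 3 and at 102, 105 and 86.2 FPKM in knockouts A to C. Knockouts A and B were the highest libraries and WT 2 the lowest, while WT 1 exceeded knockout C. The ratio was 1.16 with a 95% interval of 0.989 to 1.36 (unadjusted p = 0.0635, adjusted p = 0.329, edgeR). With 5448 to 6126 counts in wild types, counting alone gives a coefficient of variation of 1.31%, against an observed 10.7%. With 1 library per mouse, the spread between mice cannot be told apart from that of extraction and library preparation. Without WT 2 the log2 fold change of Txnip was 0.13 in place of 0.22. An antisense gene, Gm15441, shares 606 exon bases with Txnip and had 5 to 10 counts per library.

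The MondoA and ChREBP factors, encoded by Mlxip and Mlxipl with the partner gene Mlx, induce Txnip when sugar phosphates accumulate, and they bind paired E-boxes. The 250 bases upstream of the RefSeq start of Txnip (chr3:96557707-96557956, GRCm38.p6, plus strand) are shown because they hold such a pair. Capitals mark, from the 5′ end, an inverted and a direct CCAAT box, the paired E-box and a TATA box.
Txnip: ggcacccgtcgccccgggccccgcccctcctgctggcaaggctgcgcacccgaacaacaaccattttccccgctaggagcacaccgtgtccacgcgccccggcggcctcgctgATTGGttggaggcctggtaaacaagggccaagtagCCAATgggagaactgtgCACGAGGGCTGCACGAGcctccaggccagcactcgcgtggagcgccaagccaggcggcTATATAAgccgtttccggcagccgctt
The pair, CACGNG repeated after 5 further bases, was searched on both strands and lies 85 to 69 bases before the start. It occurred in 0.0457% of all 32851 windows of the same length, the CCAAT box (CCAAT) in 33.8% and the TATA box (TATANAA) in 10.4%. A match describes the letters and not a bound site. Arrdc4, the arrestin-family relative of Txnip that the same factors induce, was at 30.9, 20.4 and 29.7 FPKM in wild types and 35.9, 42 and 41.3 FPKM in knockouts. All knockouts of Arrdc4 were above all wild types (log2 fold change 0.56 ± 0.15 SE, adjusted p = 0.167, edgeR), and WT 2 was the lowest library, as for Txnip. Mlxipl was scarce, with 15 to 83 counts, at 0.261, 0.117 and 0.320 FPKM in wild types and 0.677, 0.637 and 0.441 FPKM in knockouts (log2 fold change 1.34, adjusted p = 0.161). Mlxip and Mlx had log2 fold changes of 0.14 and 0.01. Of the 8 tested genes of this thioredoxin and MondoA list 0 passed over all genes, and the thioredoxin gene Txn1 was at 141 ± 8.09 FPKM in wild types and 133 ± 2.15 FPKM in knockouts (SD, n = 3). Txnrd1 of this list was lower in knockouts, with overlapping genotypes (log2 fold change -0.24, adjusted p = 0.269, edgeR).

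Pycard encodes ASC, whose pyrin domain meets the sensor and whose CARD meets caspase-1. The gene lies on chromosome 7 at 127989708 to 127993867 (minus strand). It was at 5.85, 5.35 and 5.45 FPKM in WT 1 to 3 and at 6.60, 6.25 and 5.80 FPKM in knockouts A to C. Only WT 1 and knockout C crossed. The ratio was 1.13 (95% interval 1.0 to 1.26, unadjusted p = 0.0458, adjusted p = 0.290, edgeR). An antisense gene, Gm45205, shares 485 exon bases with Pycard and had 1 to 8 counts per library against 442 to 555 of Pycard. The ratio of Nlrp3 to Pycard was 2.59, 2.78 and 2.66 in wild types and 2.45, 2.50 and 2.31 in knockouts, lower in every knockout. This ratio was chosen after the values were seen and was not tested. Its size depends on the annotated exon lengths of both genes.

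Casp1 encodes the protease of the canonical complexes. It was at 17, 14.7 and 16.3 FPKM in wild types and at 18.9, 17.8 and 18.5 FPKM in knockouts A to C, from 1060 to 1314 counts. The lowest knockout was above the highest wild type. The knockout level was 1.16 times the wild-type level (95% interval 1.04 to 1.29), at an unadjusted p of 0.0131 and an adjusted p of 0.204 (edgeR). The exact two-sided permutation test on FPKM gave p = 0.1, the smallest that 3 mice against 3 allow. WT 2 had the lowest level, and without it the log2 fold change was 0.15 in place of 0.21.

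Casp4, the mouse gene also known as Casp11, encodes the protease that binds bacterial lipopolysaccharide directly and cuts gasdermin D in the noncanonical pathway. It had the largest fold change of the 10 genes. Casp4 was at 5.26, 4.45 and 5.28 FPKM in WT 1 to 3 and at 6.51, 7.32 and 6.26 FPKM in knockouts A to C, from 392, 382 and 453 counts and 535, 516 and 466 counts. Knockout B was highest and WT 2 lowest. The log2 fold change was 0.43 ± 0.10 (SE), a ratio of 1.35 with a 95% interval of 1.16 to 1.57. Its unadjusted p of 0.00204 ranked 213 among all tested genes and its adjusted p was 0.146 (edgeR), and an exact permutation test, two-sided, returned p = 0.1. Relative to Casp1 the level of Casp4 was 0.309, 0.303 and 0.325 in wild types and 0.344, 0.411 and 0.338 in knockouts. This ratio, too, was higher in every knockout, was chosen after the values were seen and was not tested.

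Casp1 and Casp4 are neighbours in the same direction on chromosome 9, at 5298508 to 5307290 and 5308828 to 5336783, with 1.54 kb between them (GRCm38). Their upstream sequences are shown because these neighbours were the genes whose genotypes separated. The Casp4 window (chr9:5308599-5308848, plus strand) and the Casp1 window (chr9:5298267-5298516, plus strand) are from RefSeq on GRCm38.p6, and capitals mark matches to an NF-kB motif, GGG and TTTCC with any 2 bases between, searched on both strands.
Casp4: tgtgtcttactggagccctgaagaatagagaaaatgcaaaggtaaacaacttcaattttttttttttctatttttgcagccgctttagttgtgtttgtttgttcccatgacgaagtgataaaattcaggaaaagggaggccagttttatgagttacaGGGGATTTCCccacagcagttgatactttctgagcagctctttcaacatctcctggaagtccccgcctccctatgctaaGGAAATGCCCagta
Casp1: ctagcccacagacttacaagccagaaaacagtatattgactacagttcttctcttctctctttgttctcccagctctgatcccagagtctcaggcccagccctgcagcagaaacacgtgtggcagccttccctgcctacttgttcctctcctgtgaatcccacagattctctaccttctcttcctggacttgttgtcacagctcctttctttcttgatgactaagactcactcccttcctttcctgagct
The Casp4 window holds this motif on the plus strand 93 to 84 bases before the start and on the minus strand 14 to 5 bases before it. The motif occurred in 1.41% of all windows. The Casp1 window has no capitals: no match to this motif or to the interferon-response core, GAAA repeated after any 2 bases (2.98% of all windows), was found there, and the Casp4 window also lacked the interferon-response core. No matches overlapped in the printed windows. RefSeq gives Casp4 another start 11 bases downstream, whose window holds the same NF-kB matches. Windows were found for 9 of the 10 genes, and Casp4 alone among the 9 held this form of the NF-kB motif. Looser forms of the NF-kB site were not searched.

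**Figure D2:**
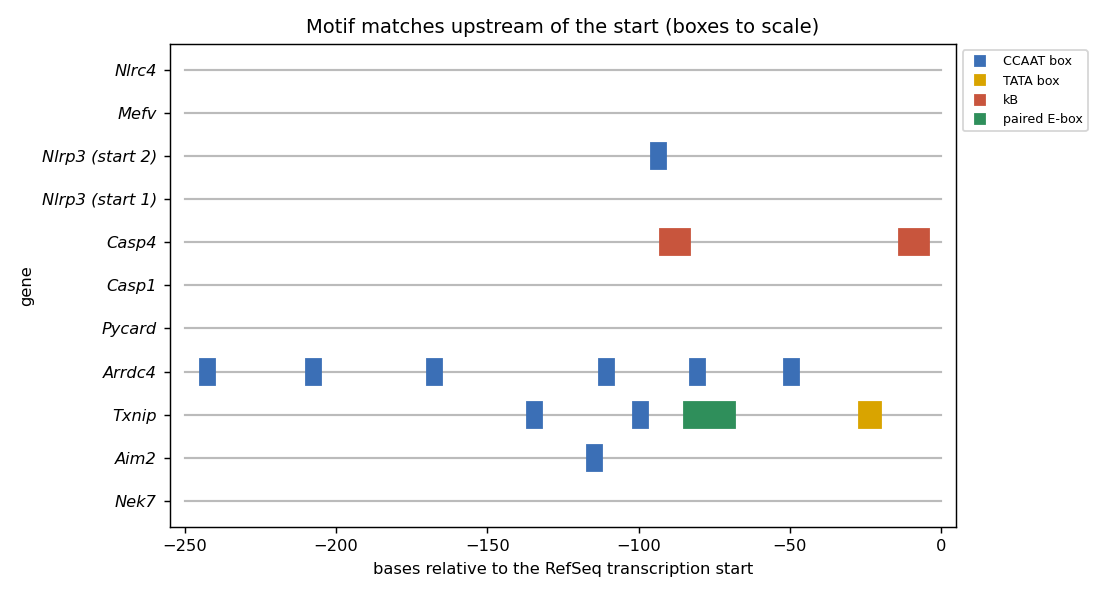
Motif matches in the 250 bases before the RefSeq start of 9 inflammasome genes and Arrdc4, with boxes drawn to scale against the distance from the start in bases. Nlrp3 has 2 annotated starts and Casp4 is drawn from its first start. Boxes for the NF-kB form searched (kB) appear for Casp4 alone and the paired E-box for Txnip alone.

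Gsdmd encodes gasdermin D, the substrate that both caspases cut. The gene lies on chromosome 15 at 75862327 to 75867408 (plus strand). It was at 21.7, 18.5 and 20.4 FPKM in wild types and at 21, 22.3 and 20.5 FPKM in knockouts A to C. WT 1 lay above knockouts A and C. The ratio was 1.06 (95% interval 0.942 to 1.19, adjusted p = 0.615, edgeR). The log2 fold change of 0.08 was 0.02 without WT 2, 0.04 without knockout B and 0.14 without WT 1. Per unit of Casp1, the level of Gsdmd was 1.26 ± 0.0110 in wild types and 1.16 ± 0.0837 in knockouts (SD, n = 3), with overlapping values.

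**Figure D3:**
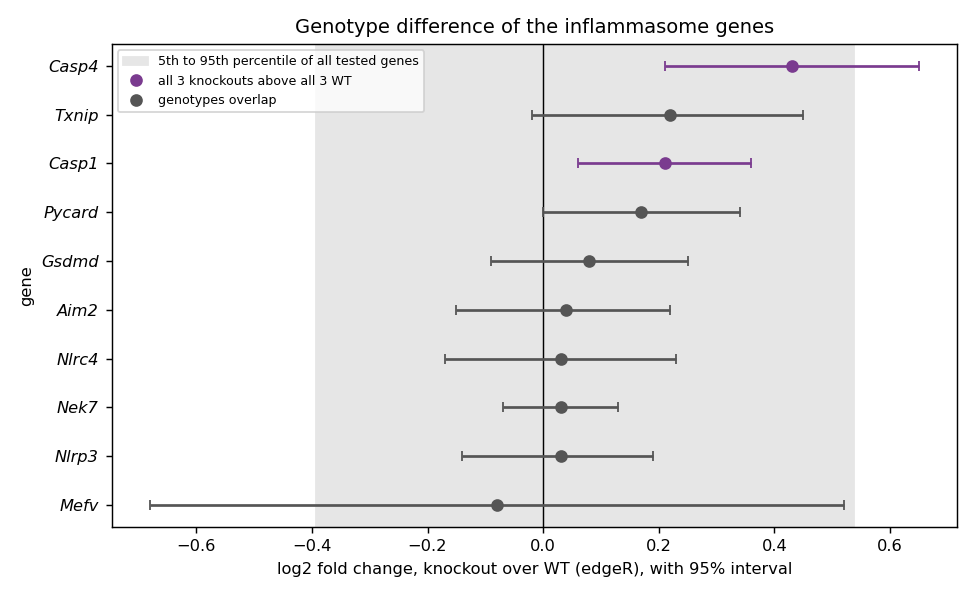
Log2 fold change of knockout over wild type for each gene (points) with its 95% interval from the edgeR fit (bars), and the band from the 5th to the 95th percentile of all tested genes in grey. The interval of Casp4, from 0.21 to 0.65, lies farthest from 0, and that of Mefv is the widest.

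Libraries shaped several of these values. WT 2 was the lowest library for 5 of the 10 genes (Pycard, Casp1, Casp4, Gsdmd and Txnip), and knockouts A and B were each the highest for 4. The summed FPKM of the 10 genes was 183, 159 and 171 in wild types and 196, 200 and 175 in knockouts A to C, with WT 1 above knockout C. Leaving out WT 1 or knockout C raised the number of genes without overlap from 2 to 5. With a library left out, separation is easier to reach, and the share over all genes was not counted for these fits. In the fit with a term for knockouts B and C against the other 4 libraries, the log2 fold changes were 0.38 for Casp4, 0.24 for Casp1, 0.25 for Pycard and 0.26 for Txnip, and each had an adjusted p of 0.837 or 0.848. Those values rest on knockout A against 3 wild types.

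**Figure D4:**
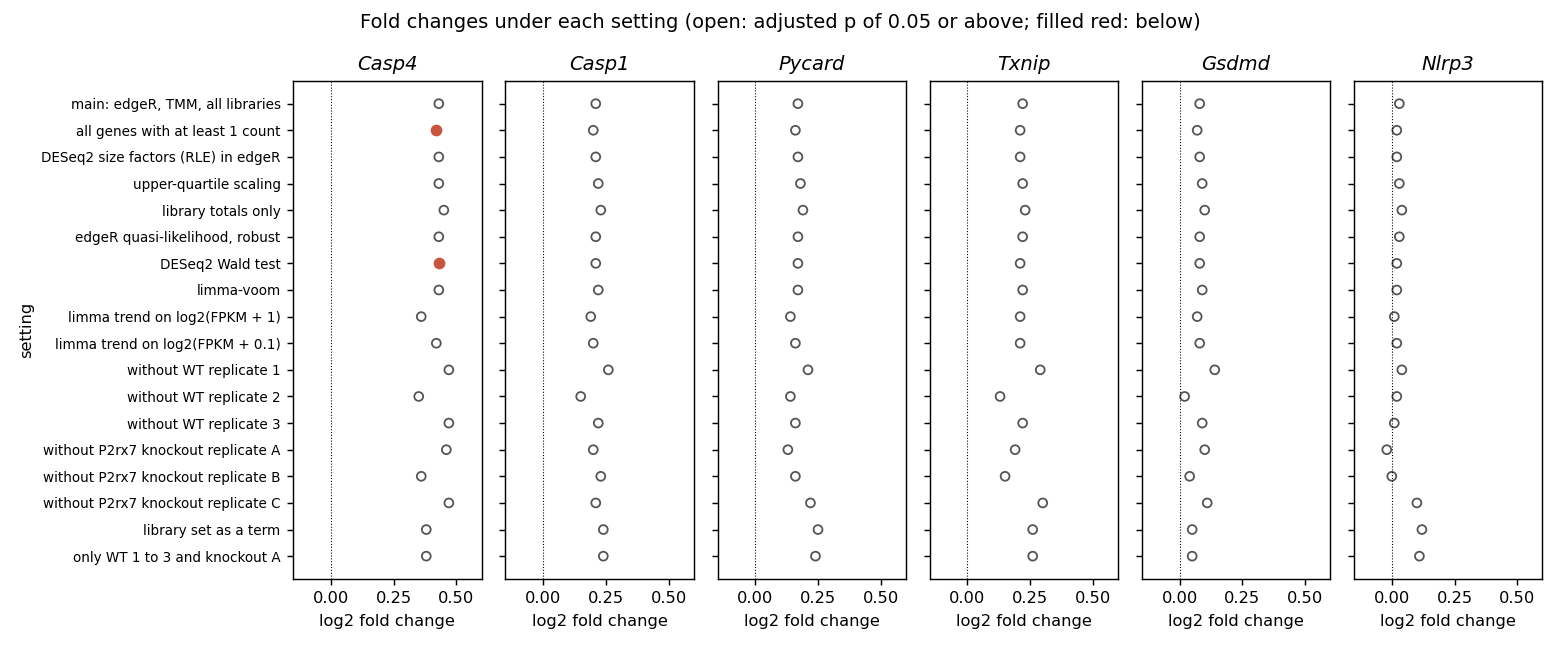
Log2 fold change (horizontal axes) of 6 of the genes under each setting (lines), with filled red points where the adjusted p was below 0.05. Casp4 ranges from 0.35 to 0.47 and is filled in 2 lines, while Nlrp3 lies on both sides of 0.

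The rest of the pathway was read from 8 further lists with 74 tested genes besides the 10. Over these, 1 gene passed over all genes tested, P2rx7 itself, and 0 were called higher. Before adjustment, 15 genes with higher and 3 with lower levels in knockouts were below 0.05, against 8.35% and 8.22% of all tested genes. The median log2 fold change was 0.04, against 0.004 over all tested genes. Since the lists were chosen with earlier results of these data known, these counts describe the lists only.

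Of the interleukin-1 family cytokines and inhibitors 0 of 3 tested genes passed. Il1b had 7, 17 and 10 counts in wild types and 3, 4 and 6 in knockouts, and Il1a had 2 to 6 counts in any library, so both were under the filter and were not tested. Il18, which many cells make without stimulation, was at 13.3 ± 0.103 FPKM in wild types and 15 ± 1.95 FPKM in knockouts (SD, n = 3; adjusted p = 0.405, edgeR). Its inhibitor Il18bp was at 4.31, 4.65 and 5.07 FPKM in wild types and 6.24, 7.48 and 6.62 FPKM in knockouts. All knockouts of Il18bp were above all wild types (log2 fold change 0.54 ± 0.10 SE, adjusted p = 0.101). Il1rn, the interleukin-1 receptor antagonist, was the most abundant of this list at 132, 72.7 and 114 FPKM in wild types and 175, 157 and 138 FPKM in knockouts (adjusted p = 0.232).

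Of the other sensors, 13 of 16 were tested and 0 passed, with 5 whose knockouts were all above the wild types and 0 below, against 11.5% and 10.4% of all tested genes. Zbp1, a sensor of left-handed nucleic acid, was at 6.75 ± 0.378 FPKM in wild types and 9.10 ± 1.13 FPKM in knockouts (adjusted p = 0.157, edgeR). Ifi204, of the same family as Aim2, was at 34.9 ± 2.07 and 42.6 ± 3.40 FPKM (adjusted p = 0.159). Naip5, which delivers flagellin to NLRC4, was at 3.18 ± 0.128 and 3.70 ± 0.0933 FPKM (adjusted p = 0.188), and Nod1, which binds a bacterial peptidoglycan fragment, was at 5.17 ± 0.561 and 6.31 ± 0.283 FPKM (adjusted p = 0.192; SD, n = 3). The Naip and Ifi200 genes are families of close copies whose reads can be split between members, so single values are less certain. Nlrp6, Nlrp12 and Naip1 had at most 8 counts in a library.

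Among the 11 tested caspases and death executioners 0 passed. Ninj1, which ruptures the plasma membrane after gasdermin pores form, was at 144, 122 and 152 FPKM in wild types and 166, 165 and 163 FPKM in knockouts (adjusted p = 0.207, edgeR). Casp12, a gene of the same chromosome 9 family as Casp1 and Casp4, was at 6.01, 4.46 and 5.99 FPKM in wild types and 6.52, 7.29 and 6.99 FPKM in knockouts (adjusted p = 0.230). For both genes the knockouts lay above all wild types and WT 2 was the lowest library. Casp8, which links death receptors to apoptosis, was at 25.3 ± 0.970 and 25.1 ± 1.12 FPKM (SD, n = 3).

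The NF-kB priming list had 0 of 10 tested genes past the threshold and a median of 0.06. Tnfaip3, a feedback inhibitor of NF-kB, had the smallest p of this list. It was at 2.46 ± 0.187 FPKM in wild types and 2.12 ± 0.177 FPKM in knockouts (log2 fold change -0.21, adjusted p = 0.308, edgeR; SD, n = 3). Nfkb1 and Tlr4, the receptor for lipopolysaccharide, had log2 fold changes of 0.10 and 0.11. Upstream of NLRP3, P2rx4, another ATP-gated channel, was at 20.5, 20.4 and 22.1 FPKM in wild types and 23.4, 26.1 and 23.5 FPKM in knockouts (adjusted p = 0.178, edgeR). Of the 6 pyrin partners 0 passed, and Ywhae, a 14-3-3 protein gene, was at 233 ± 13.9 FPKM in wild types and 200 ± 8.97 FPKM in knockouts (adjusted p = 0.189; SD, n = 3).

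Genes through which interferon prepares the sensing of lipopolysaccharide and DNA had a median log2 fold change of 0.15, with 0 of 12 past the threshold. Of the 12 values 10 were above 0, against 51.2% of all tested genes, and 4 had all knockouts above all wild types, against 11.5%. The guanylate-binding proteins of this list help caspase-11 reach bacterial membranes. Gbp2 was at 20.9, 17.1 and 18.9 FPKM in wild types and 23.4, 22.5 and 21.7 FPKM in knockouts (adjusted p = 0.200, edgeR), and Gbp3 was at 5.52, 3.31 and 4.86 FPKM and 6.27, 6.84 and 7.34 FPKM (adjusted p = 0.189). Both were above all wild types in every knockout.

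Casp4 is itself induced by interferon and by lipopolysaccharide, and 13 interferon response markers are given beside it. Of these, 1 passed over all genes tested, Ifi27l2a, and 12 did not. All 13 log2 fold changes were above 0, against 51.2% of all tested genes, and their median was 0.38. Their summed FPKM was 309, 300 and 316 in wild types and 418, 467 and 420 in knockouts A to C, with knockout B highest and WT 2 lowest, as for Casp4. The part of the interferon response in the values of Casp4 was not tested. Of the 9 monocyte and macrophage markers 0 passed, and 7 overlapped between genotypes. Over all tested genes, 21.9% did not overlap, a share near that of these markers. Their sum, given above, is mostly Lyz2, at 4340 FPKM in wild types and 4040 FPKM in knockouts. The genotypes did not overlap for Cd68, higher in knockouts (log2 fold change 0.14, adjusted p = 0.252, edgeR), and Cx3cr1, lower at 8.88, 20.0 and 7.62 FPKM in wild types and 5.98, 3.42 and 2.82 FPKM in knockouts (adjusted p = 0.162). The sum of 6 marrow stromal markers was 477, 266 and 550 FPKM in wild types and 708, 807 and 780 FPKM in knockouts, again lowest in WT 2 and highest in knockout B. Most of this sum was Cxcl12, and 0 of the 6 were called. Cxcl12 and Kitl were highest in knockout B, Lepr, Pdgfra and Pdgfrb in knockout C and Adipoq in knockout A. Pdgfrb was lowest in WT 1 and the others in WT 2. Pdgfra and Pdgfrb overlapped between genotypes, and the other 4 were higher in every knockout. The sum of 6 plasma cell markers was 46.6 to 71.6 FPKM in wild types and 174 to 206 FPKM in knockouts. Of these markers 3 were called higher, the antibody transcripts Igha, Igkc and Jchain (log2 fold changes 3.51, 3.4 and 3.75). The plasma cell marker Sdc1, most of the sum in wild types, overlapped at 42.2 ± 4.81 and 44.6 ± 2.08 FPKM (SD, n = 3). Mzb1 and Tnfrsf17 had 0 to 2 counts. The sum of 6 osteoclast markers was 34.9 to 40.5 FPKM in wild types and 47.6 to 57.6 FPKM in knockouts, with 1 called higher, Atp6v0d2. Most of this sum was Ctsk, at 28.2 FPKM in wild types and 33.8 FPKM in knockouts (adjusted p = 0.239, edgeR). Acp5 and Ctsk did not overlap and were higher in knockouts without being called, and Mmp9 overlapped. Ocstamp had 0 to 4 counts and Dcstamp 0 to 2, and neither was tested. The part of these transcripts in the values of the caspases, Pycard and Txnip was not tested.

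**Figure D5:**
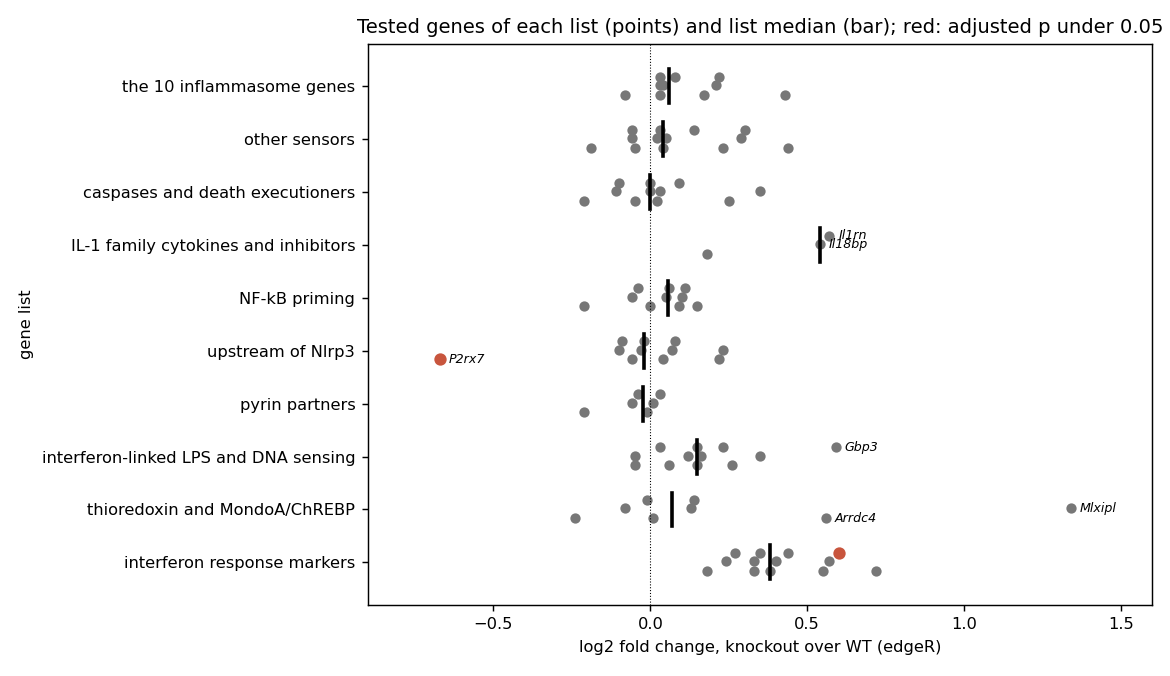
Log2 fold change of knockout over wild type for the tested genes of the 10 inflammasome genes, the 8 further lists and the interferon response markers (points), with list medians as bars and genes at an adjusted p below 0.05 in red. P2rx7 at -0.67 and 1 interferon marker at 0.60 are red, and none of the 10 inflammasome genes is.

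The 3 inflammasome genes with the widest range over the 6 libraries were Mefv, Casp4 and Txnip, and the genes most like each were sought by the root mean square difference between log2 profiles centred on their own means. For Casp4 these were Abhd5, an activator of triglyceride breakdown, Foxf2, a forkhead factor, and Ddx60, an interferon-induced helicase, at differences of 0.035, 0.037 and 0.043 against a median of 0.265 over 13165 genes. For Txnip they were Glul, the glutamine synthetase gene, the transferrin gene Trf and the inhibitory receptor gene Pirb, at 0.034, 0.043 and 0.045 against a median of 0.201. For Mefv they were Bdh1, Parvg and Klhl10, at 0.095, 0.116 and 0.119, and the highest counts of Bdh1 and Klhl10 in any library were 29 and 13. With 6 libraries and many genes, near profiles are found for most genes, and this likeness is a description.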

How the data were processed

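RNA-seq of 6 libraries, 3 wild-type and 3 P2rx7 knockout, was analysed. Each library was a SMARTer mRNA library from 1.3 µg of RNA, per the labels' protocols. GRCm38 and mm10 stand as builds in the submitters' processing notes, while aligner, counter, annotation and strand setting were not given in the sources used here. Raw counts and FPKM per gene symbol were deposited by the authors in 1 table. Each deposited FPKM above 0 equals the count over exon length and an effective library size, within a relative tolerance of 1e-06. Coordinates are those of the table. Ensembl identifiers are from GENCODE, and promoters from RefSeq (GRCm38.p6).

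Genotype was tested on the counts with edgeR 4.0.16 in R 4.3.3 (filterByExpr, 15478 genes, TMM, glmQLFit and glmQLFTest, two-sided, Benjamini-Hochberg over all tested genes, threshold 0.05), after a test of the script on simulated data. Intervals are 95% from the same fit. Overlap of genotypes was read from TMM-scaled CPM. limma 3.58.1 and DESeq2 1.42.0 served as alternatives, with pseudocounts of 1 and 0.1 for FPKM. The genes, lists, motifs and library set were chosen with earlier results of these data known. All 10 genes are described. From each further list up to 4 genes past the threshold, or else the 4 of smallest p, and the 2 of highest level could be named. Some results are not reported here. The labels name separate mice, but no separate extraction or sequencing batch.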

Additional observations from a re-analysis of the deposited data

How the results depend on the processing

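The direction of Pycard, Casp1, Casp4, Gsdmd and Txnip was the same under all 17 alternatives, and the log2 fold change ranged from 0.35 to 0.47 for Casp4 and from 0.15 to 0.26 for Casp1. DESeq2, and edgeR without the filter, each called 1 of the 10 genes, Casp4. They called 496 of 15478 and 970 of 30301 genes in all, against 16 of 15478 in the main analysis. The other counts over all genes were 6 with limma-voom, 10 and 2 with limma on log2(FPKM + 1) and log2(FPKM + 0.1), and 0 both with a term for knockouts B and C and with WT 1 to 3 and knockout A only. Leaving out 1 library gave 0 (without knockout B or C) to 172 (without WT 3). At an unadjusted p below 0.05, edgeR had 1468 genes without knockout B, 1772 without knockout C, 894 with the term and 668 in the 4 libraries. Scaling by library totals left 4 of the 10 genes without overlap, and leaving out 1 library left 2 to 5. The share of all genes without overlap was not counted for these settings. Signs turned for 5 genes near 0. Leaving out 1 library gave log2 fold changes of -0.0195 to 0.1037 for Nlrp3 (-0.0195 without knockout A, -0.0038 without knockout B), -0.0077 to 0.0887 for Nlrc4 (lowest without knockout A), -0.033 to 0.0904 for Aim2 (lowest without WT 3), -0.0032 to 0.043 for Nek7 (lowest without WT 1) and -0.2855 to 0.1798 for Mefv (highest without knockout A). The cause of these shifts was not tested. No paired analysis was possible because wild types carry numbers and knockouts letters. Mefv had 34 to 66 counts, and its spread among knockouts exceeded that of counting alone. The other 9 genes had at least 270 counts in every library.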
